A study of Rattus norvegicus with 2 samples.

Results

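Fatty acid oxidation, ketogenesis and targets of the nuclear receptor PPAR-alpha are described here in regenerating rat liver, as 38 genes chosen by symbol. Of these, 37 were matched to a probe set that names a single gene, among 14217 genes on the array. The sole probe set listed for Acaa1a, the peroxisomal thiolase, also lists a second gene, so Acaa1a has no value here. The tissue was the liver remnant at 24 h after partial hepatectomy (PH), an operation that takes out part of the liver. The first group, 1/3PH, had the smaller part removed and the other, 2/3PH, the larger. Each group is 1 array that holds the combined RNA of 3 rats, per the series' design text. The study asked which mRNAs set 2/3PH, with strong DNA replication, apart from 1/3PH, with little. The labels state no strain, sex or age of the rats, and no unoperated or sham-operated liver was analysed.

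Liver oxidizes fatty acids along 3 routes. Mitochondria take long-chain fatty acids through the carnitine shuttle and cut them by beta-oxidation, and the acetyl-CoA formed feeds respiration or the synthesis of ketone bodies. Peroxisomes shorten very-long-chain and branched fatty acids, and microsomal cytochromes of the Cyp4a family hydroxylate the far end of the chain. PPAR-alpha, activated by fatty acids, is known to raise genes of all these routes, above all in fasting.

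The values were log2 MAS 5.0 signals, which summarise the probe pairs of a probe set and scale each array by a single factor. Median log2 signals were 6.48 and 6.53 on the 1/3PH and 2/3PH arrays. The brightest probe set of a gene, by mean log2 signal, stands for it, and a gene is counted when that mean reaches a floor of 6.48, a signal of 89.2. The quantity compared is the log2 ratio, 2/3PH minus 1/3PH, so a higher gene has more signal on the 2/3PH array. No group has a second array, so no difference below was tested and no p-value is given. As a gauge of error within the arrays, the ratio of a probe set had an SD of 0.31 between probe sets of the same gene (2067 genes). That gauge holds no variation between rats. Scaling to the hybridisation controls would add 0.24 to every log2 ratio and scaling to the poly-A controls 0.44, so the sign of a small ratio depends on the scaling. Of the 36 genes above the floor, 17 kept their sign as deposited and under 5 other scalings (both controls, median centring, quantile and loess), 8 of them below 0 and 9 above. The genes below 0 were Ehhadh, Cd36, Bdh1, Acsl1, Acadm, Hsd17b4, Etfb and Acads, and those above were Angptl4, Fgf21, Pdk4, Eci1, Pex11a, Vnn1, Cpt2, Cyp4a3 and Cpt1a. These scalings are not balanced, since both controls raise every ratio and median centring lowers it by only 0.05. A small positive ratio, as of Cpt1a at 0.09, therefore keeps its sign more easily than a larger negative one. Decr1, at -0.41, did not keep its sign, so the 8 and 9 genes should not be set against each other. The median over all 9514 genes above the floor was 0.03 as deposited.

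Few of these genes differed by 2-fold, and those that did were lower after 2/3PH. Of the 36 counted genes, 3 were lower by 2-fold or more, against a background of 3.68% of all genes. They were Ehhadh, a peroxisomal beta-oxidation enzyme, Cd36, a fatty acid uptake receptor, and Bdh1, the last enzyme of ketone body synthesis. None was at least 2-fold higher, against a background of 6.12%, although Angptl4, an inhibitor of lipoprotein lipase, lay just under that limit at 1.97-fold. Ratios were below 0 in 24 of the 36 genes and above 0 in 12, while 47.1% of all genes were below 0. That split became 17 below and 19 above with hybridisation control scaling, and 8 below and 28 above with poly-A scaling. The median of the 36 genes was -0.23, which is 0.26 under the median of all genes. That distance does not depend on any single scaling factor, but was 0.08 after quantile normalization and 0.13 after removal of a loess trend. Ratios of 16 genes lay within 0.31 of 0, and 6 lay more than 0.62 from it, namely Ehhadh, Cd36, Bdh1, Acsl1, Angptl4 and Fgf21.

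**Figure D1:**
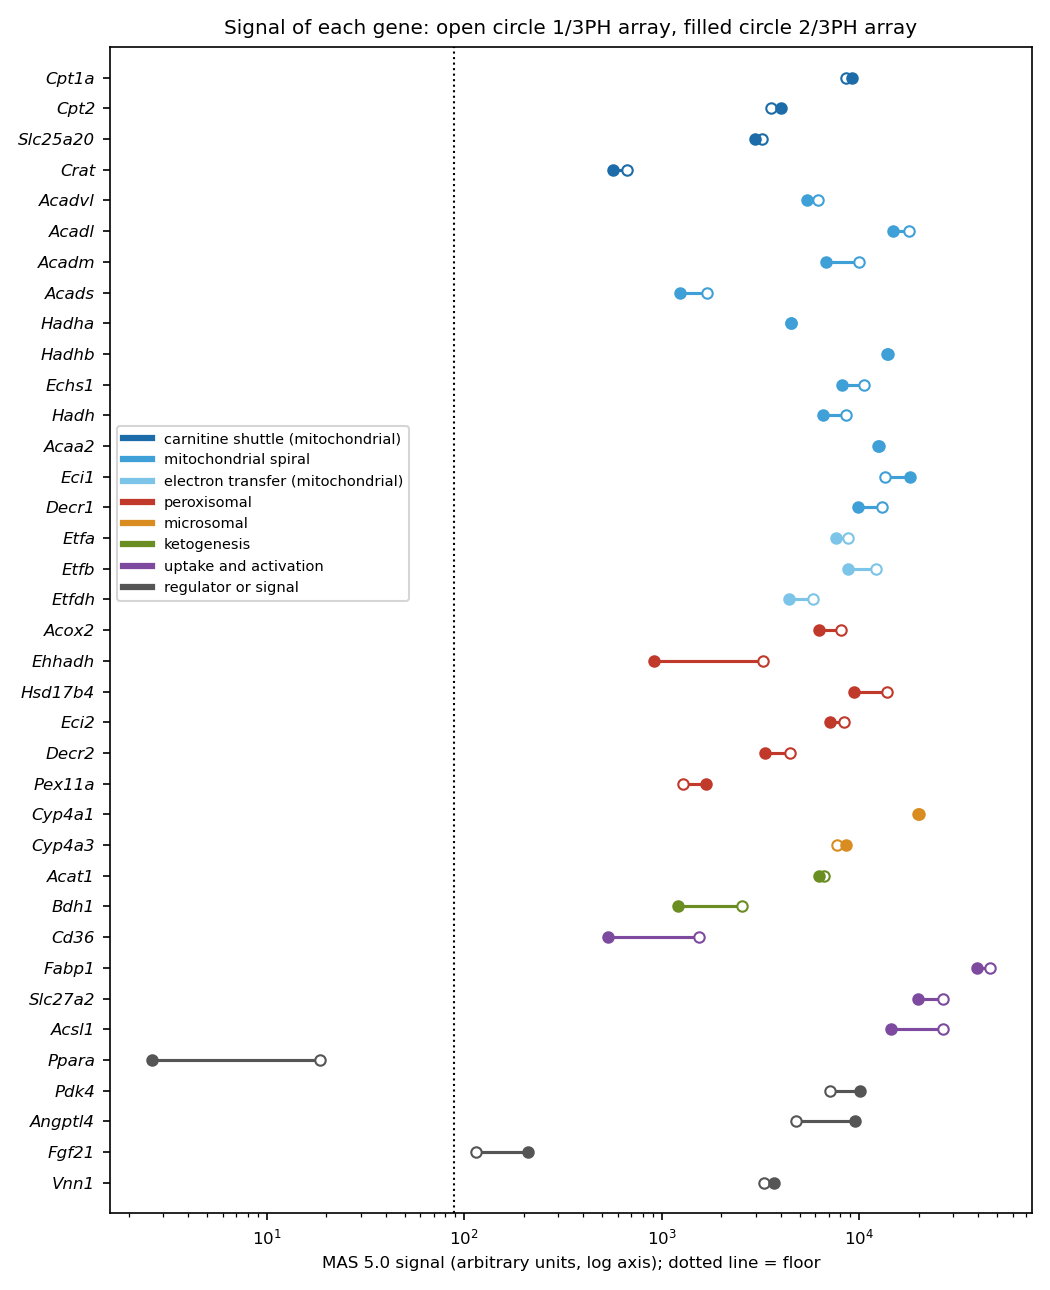
MAS 5.0 signal of each of the 37 measured genes on a log axis, with the 1/3PH array as an open circle, the 2/3PH array as a filled circle and the floor of 89.2 as a dotted line. Ehhadh, Bdh1 and Cd36 show the longest gaps above the floor, Ppara lies under it on both arrays, and no signal should be set against that of another gene.

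The carnitine shuttle differed little. Cpt1a, the regulated entry enzyme of the shuttle, had signals of 8614 (1/3PH) and 9197 (2/3PH), a log2 ratio of 0.09, and its other probe set gave 0.04. Cpt2, which returns the acyl group to CoA inside the mitochondrion, had 3597 and 4031, a ratio of 0.16. Slc25a20, the carnitine-acylcarnitine carrier of the inner membrane, stood at -0.12 and carnitine acetyltransferase Crat, found in mitochondria and peroxisomes, at -0.23. All 4 lay within the SD between probe sets of a gene, and the 2 negative ratios turned positive under both control scalings.

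Most genes of the mitochondrial beta-oxidation spiral had ratios a little below 0 as deposited. Of 11 genes, 8 had ratios below 0, with a median of -0.26 that was 0.18 under poly-A scaling, and none passed 2-fold. Acadm, the medium-chain acyl-CoA dehydrogenase, had signals of 9952 and 6807, a ratio of -0.55, and the short-chain enzyme Acads had 1690 and 1241, a ratio of -0.45. Decr1, the reductase needed for unsaturated fatty acids, stood at -0.41, Hadh, a hydroxyacyl-CoA dehydrogenase, at -0.39 and the hydratase Echs1 at -0.36. Long-chain dehydrogenase Acadl had signals of 17901 and 14898, a ratio of -0.26, and Acadvl, the very-long-chain enzyme of the inner membrane, stood at -0.20.

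The subunits of the mitochondrial trifunctional protein, which carries out the last steps of long-chain oxidation on the inner membrane, had nearly equal signals on both arrays. Hadha had 4511 and 4539, a ratio of 0.01, and Hadhb 13909 and 14057, a ratio of 0.02. A dimmer Hadha probe set gave 0.50 at signals of 123 and 174. Acaa2, the matrix thiolase, stood at -0.02, but its other probe set gave 0.66 at signals of 951 and 1504. Eci1, an isomerase for unsaturated chains, was the highest of the spiral at 0.42, with signals of 13522 and 18038. Its probe set, of the type _s_at, can match transcripts of more than 1 gene.

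A grouping made after the values were seen took 6 membrane enzymes from the shuttle and spiral (Cpt1a, Cpt2, Slc25a20, Acadvl, Hadha and Hadhb). Their ratios ran from -0.20 to 0.16, with a median of 0.01 that lay between -0.04 and 0.45 over the 6 scalings. Etfdh (-0.40), Bdh1 (-1.09) and Acsl1 (-0.88) are not in this set, so its range does not describe all mitochondrial membrane enzymes. The 8 matrix enzymes of the spiral had ratios from -0.55 to 0.42 and a median of -0.37, between -0.42 and 0.07 over the same scalings. The ranges of the 2 sets overlapped. Electron transfer genes, which were in neither set, had a median of -0.40 that was 0.04 under poly-A scaling. Etfdh, which passes electrons from beta-oxidation to ubiquinone, had signals of 5827 and 4414, a ratio of -0.40. Etfb, a subunit of the electron transfer flavoprotein, stood at -0.47 and its partner Etfa at -0.20. Over the shuttle, spiral and electron transfer together, 13 of 18 mitochondrial genes had ratios below 0. Their median was -0.22, and it was 0.02 and 0.22 under hybridisation control and poly-A scaling.

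Among the described genes, the peroxisomal ones had the lowest median of the 3 routes, and Ehhadh stood apart from the rest of them. Further genes listed under these routes, given below, had another order. They are not a like set, since the peroxisomal list also holds thioesterases and catalase, and the microsomal list an alcohol dehydrogenase. Their medians were 0.13 (peroxisomal), -0.27 (mitochondrial) and -0.50 (microsomal). Ehhadh, the L-bifunctional enzyme that hydrates and dehydrogenates acyl-CoA in peroxisomes, had a signal of 3266 on the 1/3PH array, which was 910.4 on the 2/3PH array. It was 3.59-fold lower, a log2 ratio of -1.84 and the 50th lowest of 9514 genes. Hsd17b4, the D-bifunctional enzyme that carries out the same steps on branched and very-long-chain substrates, had 13780 and 9465, a ratio of -0.54. The difference between both log2 ratios was -1.30.

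The other peroxisomal genes covered a narrower range. Decr2, the peroxisomal dienoyl-CoA reductase, stood at -0.42, Acox2, an oxidase for branched chains and bile acid precursors, at -0.36 and the isomerase Eci2 at -0.24. Pex11a, which takes part in peroxisome division, had 1279 and 1668, a ratio of 0.38, but its other probe set gave -0.43, so its direction is not settled. The median of 6 genes was -0.39, or 0.17 under the mitochondrial median, and it turned positive, to 0.05, under poly-A scaling. Without a value for Acaa1a, the thiolase step of this route is not described.

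Microsomal Cyp4a genes had nearly equal signals on both arrays. Cyp4a1, a fatty acid omega-hydroxylase and a classical PPAR-alpha target, had 19788 and 20134, a ratio of 0.03. Cyp4a3 had 7722 and 8531, a ratio of 0.14. Both lay within the SD between probe sets, and closely related Cyp4a transcripts may share probes. Classical PPAR-alpha targets thus had unlike ratios on the same arrays, with Ehhadh at -1.84, Cpt1a and Cyp4a1 near 0 and Angptl4 at 0.98.

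**Figure D2:**
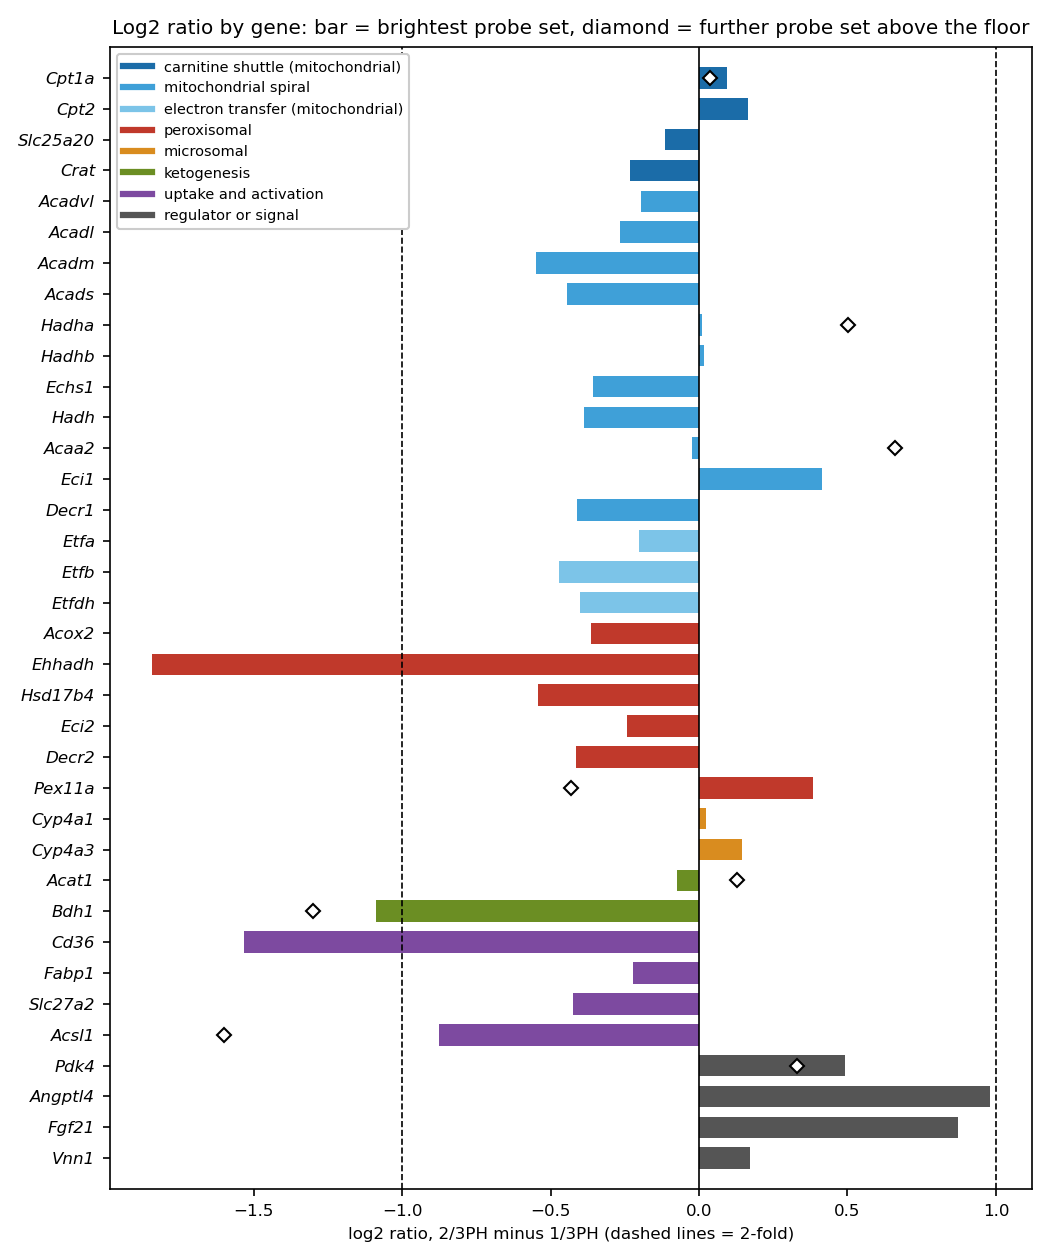
Log2 ratio, 2/3PH minus 1/3PH, of the 36 genes above the floor, coloured by role; bars show the brightest probe set, diamonds further probe sets above the floor, and dashed lines the 2-fold limit. The bars of Ehhadh, Cd36 and Bdh1 pass the lower limit, and the diamonds of Acaa2, Hadha, Pex11a and Acsl1 lie away from their bars.

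Ketogenesis was represented by its first and last enzymes. Acat1, the mitochondrial acetoacetyl-CoA thiolase, had signals of 6609 and 6273, a ratio of -0.08, and its other probe set gave 0.13. Bdh1, which reduces acetoacetate to beta-hydroxybutyrate, had 2564 and 1206 and was 2.13-fold lower, a ratio of -1.09 and the 282nd lowest. Its other probe set, with 2283 and 926.4, gave -1.30. Under hybridisation control and poly-A scaling its ratio was -0.85 and -0.65, short of 2-fold.

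Uptake and activation genes were all lower as deposited. Cd36 had 1542 and 533.0 and was 2.89-fold lower, a log2 ratio of -1.53 and the 103rd lowest. Acsl1, the main long-chain acyl-CoA synthetase of liver, had 26503 and 14431 and was 1.84-fold lower. Its other bright probe set, with 9840 and 3245, was 3.03-fold lower, so the size of the Acsl1 difference depends on the probe set. Slc27a2, which activates very-long-chain fatty acids, had 26675 and 19894, a ratio of -0.42, and Fabp1, the abundant fatty acid binding protein of the hepatocyte cytosol, had 45992 and 39428, a ratio of -0.22. The ratio of Slc27a2 was 0.02 under poly-A scaling, and that of Fabp1 was above 0 under loess and both control scalings.

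Cd36 is also carried by macrophages and endothelial cells, whose markers were lower as deposited. For macrophages and Kupffer cells this held for 11 of 11 markers above the floor, with a summed signal of 22317 after 1/3PH and 14967 after 2/3PH. They ranged from Cd163 at -0.15 to Lyz2 at -1.29. All 10 endothelial markers were lower on that scale, with summed signals of 15034 and 9694, from Pecam1 at -0.003 to Kdr at -1.08. Their part in the Cd36 difference was not tested. In pooled tissue, fewer cells of a type and less RNA per cell cannot be told apart. All 11 hepatocyte markers were above the floor on these liver arrays, with ratios from -0.74 for Tat to -0.05 for Apoa1 and a median of -0.18, which was above 0 under quantile, loess and both control scalings. Stellate cell and fibroblast markers had 7 of 10 members lower, from Lum at -1.81 to Pdgfrb at 0.43. Muscle markers other than Fabp3 were under the floor.

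Secreted signals and the remaining targets had ratios above 0, none of them past 2-fold as deposited. The 4 genes of this kind above the floor had a median of 0.68. Angptl4, which is secreted by liver and fat in fasting, had 4808 and 9485, a ratio of 0.98. Fgf21, a hormone made by liver in fasting under PPAR-alpha, had 114.4 and 209.3, a ratio of 0.87, at signals near the floor. Pdk4, the kinase that shuts off pyruvate dehydrogenase when fat is burned, had 7143 and 10037, a ratio of 0.49, and its other probe set gave 0.33. Vnn1, a pantetheinase, had 3306 and 3724, a ratio of 0.17 that lay within the SD between probe sets. Under the 5 other scalings these 4 ratios stayed positive, and Angptl4 passed 2-fold under 4 of them. Ppara itself had signals of 18.5 and 2.62, both under the floor, so neither a fold nor a direction is given for the receptor.

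PPAR-alpha acts with RXR on a direct repeat of the half-site AGGTCA with 1 base between the copies, AGGTCANAGGTCA. RefSeq promoter windows of build GRCr8, from 250 bases before to 50 after the start site, were found for 33 of the 38 genes and searched on both strands. No window held the repeat exactly, and 2 of 33 held it with up to 1 mismatch, against 0.439% of all 33469 windows. With up to 2 mismatches 7 of 33 did, or 21.2%, against 3.77% of all windows and 2.90% of the 8855 windows of genes above the floor. The median GC content was 59.7% for these genes and 60.7% for the windows of genes above the floor. The sequences below are those 7, shown because they hold the closest matches, 5′ to 3′ on the strand of the gene, with the matched bases in capitals. The stretch for Slc25a20 is the match alone, since it lies after the start site.
Fabp1, chr4:104749248-104749290, + strand, 1 mismatch: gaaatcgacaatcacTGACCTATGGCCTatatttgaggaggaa
Acadvl, chr10:55236706-55236737, - strand, 1 mismatch: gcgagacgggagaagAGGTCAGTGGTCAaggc
Slc27a2, chr3:134258010-134258052, + strand, 2 mismatches: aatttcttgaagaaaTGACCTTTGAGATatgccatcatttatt
Etfa, chr8:64788092-64788134, - strand, 2 mismatches: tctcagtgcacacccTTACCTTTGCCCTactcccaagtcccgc
Echs1, chr1:204333634-204333676, - strand, 2 mismatches: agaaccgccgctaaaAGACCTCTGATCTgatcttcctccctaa
Crat, chr3:34087295-34087337, - strand, 2 mismatches: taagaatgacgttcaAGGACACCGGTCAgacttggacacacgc
Slc25a20, chr8:118243588-118243600, + strand, 2 mismatches: AGGTGAAAGGTCG
In Fabp1, Slc27a2, Etfa and Echs1 the repeat reads on the opposite strand. As deposited, all 7 genes had ratios between -0.42 and -0.12, with a median of -0.22. The 24 other genes with a window and a value ran from -1.84 to 0.98 with a median of -0.30. Poly-A scaling, which raises every ratio, put all 7 above 0, from 0.02 for Slc27a2 to 0.33 for Slc25a20, so their sign depends on the scaling. A match is a description of letters and not a bound site, and elements further from the start lie outside these windows.

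The genes with the largest differences had no such close match in these windows. The best matches in the windows of Ehhadh and Bdh1 had 3 mismatches, and those of Cd36 and Angptl4 had 4. Those of Ehhadh, Bdh1 and Cd36 are shown for comparison with the set above, with the matched bases in capitals. The stretch for Ehhadh is the match alone, since it spans the start site.
Ehhadh, chr11:92746401-92746413, + strand, 3 mismatches: ACGTCAGAGGTGC
Bdh1, chr11:82842849-82842886, - strand, 3 mismatches: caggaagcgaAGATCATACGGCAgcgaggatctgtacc
Cd36, chr4:18246340-18246382, + strand, 4 mismatches: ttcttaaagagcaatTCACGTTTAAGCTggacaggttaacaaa
No match says only that these letters are not in this window.

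Hadha and Hadhb, whose ratios were 0.01 and 0.02, lie head to head with 300 bases between their start sites. The 250 bases before the Hadha start are shown because they lie within the stretch that both genes share, on the Hadha strand, with the best match of 3 mismatches in capitals.
Hadha and Hadhb, chr6:31907551-31907800, + strand: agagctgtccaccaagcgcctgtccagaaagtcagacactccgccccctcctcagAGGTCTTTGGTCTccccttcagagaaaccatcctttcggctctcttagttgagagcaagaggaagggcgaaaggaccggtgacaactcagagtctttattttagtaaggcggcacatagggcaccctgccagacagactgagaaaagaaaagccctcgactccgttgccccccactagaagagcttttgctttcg

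Further genes of the same pathways came from a list of 150 entries, of which 138 were matched and 123 lay above the floor. Of these 123, the 2-fold limit was passed by 8 upward and by 8 downward, against 6.12% and 3.68% of all genes, and the median was -0.24. The upward share is near the background. Other mitochondrial genes had 11 of 14 ratios below 0 and a median of -0.27, or 0.17 under poly-A scaling, and ran from -0.93 for Acad10 to 1.48 for Acot2. Of these, Acot2, a mitochondrial acyl-CoA thioesterase, was 2.78-fold higher, with 2163 and 6016. As a relative of Acot1, described below, Acot2 may share probes with that gene. Carnitine supply genes lay on both sides, with Crot, the peroxisomal carnitine octanoyltransferase, at 6139 and 12088, a ratio of 0.98, and Bbox1, the last enzyme of carnitine synthesis, at -0.90. Aldh9a1, an earlier enzyme of that synthesis, stood at -0.60.

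Other peroxisomal genes lay on both sides of 0. Their 17 members had a median of 0.13, with 8 below 0 and 9 above. On the higher side, Gnpat had 205.0 and 409.1, a ratio of 0.997, and Ephx2 had 1622 and 2387, a ratio of 0.56. Abcd2 stood at 0.88, with a 1/3PH signal of 71.5 that was under the floor. Catalase, Cat, which breaks down the peroxide made in peroxisomes, had 22343 and 12198, a ratio of -0.87. Amacr, a racemase for branched chains, stood at -0.59, and Ech1, Hacl1 and Scp2 each stood at -0.41. The thioesterases Acot3 and Acot4 were 2.31-fold and 2.08-fold higher, with signals of 178.3 and 412.3 for Acot3 and 1519 and 3163 for Acot4. These genes are close relatives of Acot1, which was 22.8-fold higher, and may share probes. All 12 peroxins, the proteins that build peroxisomes, were below 0 as deposited, but their median was only -0.06 and turned positive under both control scalings. Pex5, the import receptor, was the lowest at -0.89, and Pex16 and Pex13 stood at -0.46 and -0.43.

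Other genes listed as microsomal had 7 of 8 ratios below 0 and a median of -0.50. This count includes Adh4, a cytosolic alcohol dehydrogenase, at -0.85. Cyp4f4, another fatty acid hydroxylase, had 4867 and 1302 and was 3.74-fold lower. Ketone metabolism beyond the pair above had 6 of 7 below 0 and a median of -0.60. Aacs, the cytosolic acetoacetyl-CoA synthetase that uses ketone bodies for lipid synthesis, had 235.0 and a signal of 69.2, under the floor, and was at least 2.63-fold lower. Partners, co-regulators and other targets of PPAR-alpha had 26 of 39 below 0 and a median of -0.17 that turned positive under both control scalings. Among them 2 were higher and 2 lower by 2-fold, shares near the 6.12% and 3.68% of all genes. The lower pair were Pdk2, at 999.6 and 443.9 and 2.25-fold lower, and the lipin Lpin2, 2.24-fold lower. Pdk2 and Pdk4, kinases of the same complex, therefore had opposite signs, also under poly-A scaling, which leaves Pdk2 at -0.73.

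**Figure D3:**
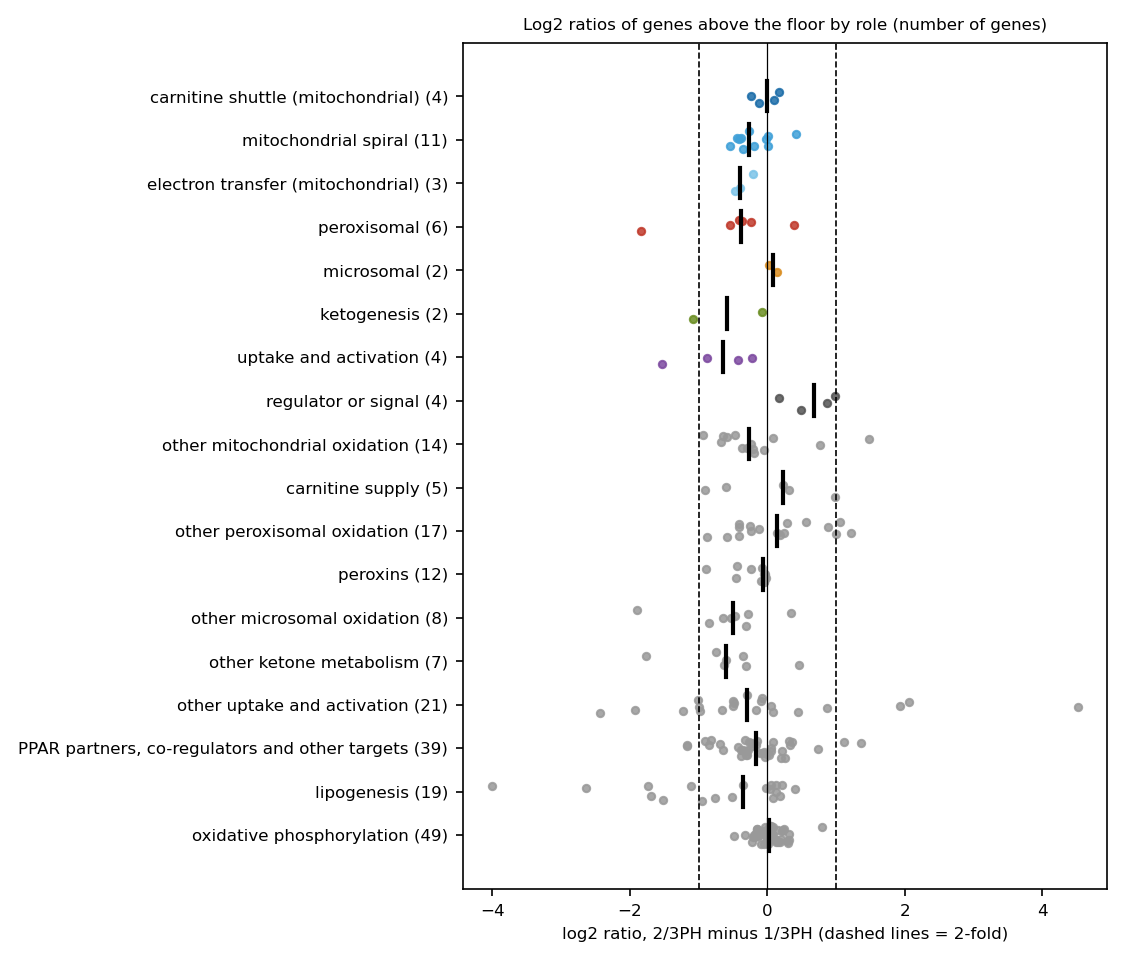
Log2 ratios, 2/3PH minus 1/3PH, of genes above the floor by role, with the number of genes in brackets; coloured rows are the 36 genes described, grey rows the further lists, points are genes, black ticks medians and dashed lines the 2-fold limit. Oxidative phosphorylation is centred at 0.02, the mitochondrial spiral at -0.26, and lipogenesis reaches -4.00.

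Neighbouring pathways are given beside the mitochondrial oxidation genes. None of 49 oxidative phosphorylation subunits was 2-fold higher or lower, against the same background of 6.12% and 3.68%, and their median was 0.02 (-0.03 after median centring), with a range from -0.48 for Sdha to 0.79 for Ndufa5. Among 19 lipogenesis genes the median was -0.35, or 0.09 under poly-A scaling, and 6 passed the 2-fold limit downward and none upward, against 3.68% and 6.12% of all genes. The lipogenic genes spanned -4.00 for Thrsp to 0.40 for Gpam, while the 18 mitochondrial genes spanned -0.55 to 0.42. With 1 array per group these differences between lists were not tested.

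**Figure D4:**
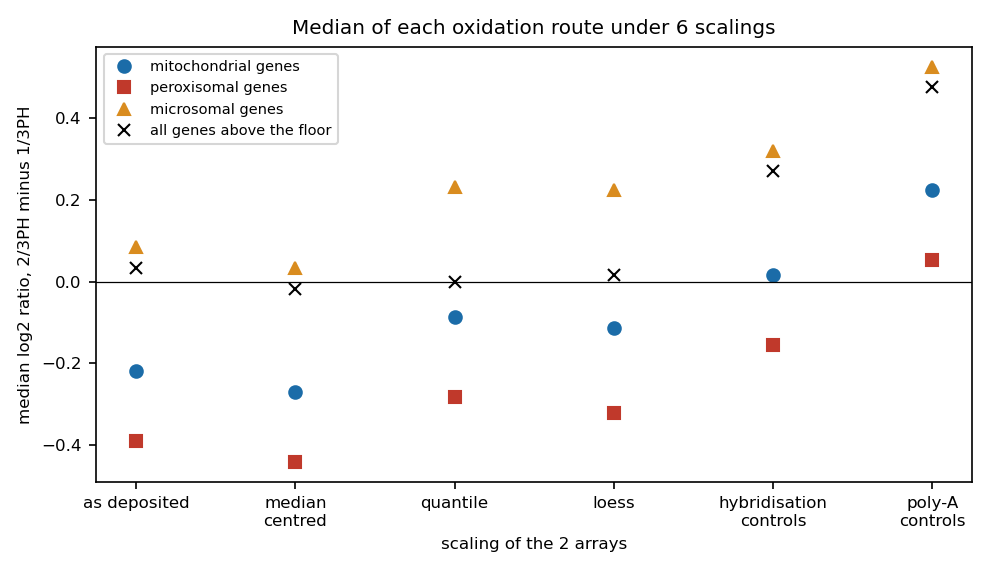
Median log2 ratio, 2/3PH minus 1/3PH, of the mitochondrial (18), peroxisomal (6) and microsomal (2) genes and of all genes above the floor, as deposited and under 5 other scalings. Among these described genes the peroxisomal median is the lowest of the 3 routes in each scaling, which does not hold for the further lists. The sign of the mitochondrial and peroxisomal medians depends on the scaling.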

How the data were processed

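Liver RNA of 1/3PH and 2/3PH was measured on 1 Affymetrix array each, from pools of 3 rats. The deposited values are log2 MAS 5.0 signals, computed by the authors in GeneSpring 11.0 per the labels' protocols. Base 2 was inferred from the values: as powers of 2, with 2% trimmed at each end, the arrays had mean signals of 500.3 (1/3PH) and 500.2 (2/3PH). Because both arrays are scaled to the same mean, a change in total RNA per cell cannot be read. No detection calls were used, and a floor at the 50th percentile of mean log2 signal took their place. The platform annotation named the probe sets, and Entrez identifiers gave current RefSeq symbols (GRCr8). Of 31042 probe sets that were not controls, 20826 had 1 gene and 436 several, and 9780 were not named here.

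The genes described and all lists were chosen with earlier results of these data known. All described genes are named; of the other pathway and neighbouring lists, genes past 2-fold or among the 3 largest absolute ratios of a role could be named, and of marker lists the extremes. Sdha, Ndufa5, Gpam, Cat, Abcd2, Ephx2, Amacr, Ech1, Hacl1 and Scp2 were named after their values were seen. Promoter motifs and the grouping by membrane were added after the values were seen. On simulated data with probe set noise, 34 of 34 genes with a log2 ratio of 2 passed 2-fold, and 16 of 9375 unchanged genes did. That noise holds no variation between rats, so these counts are not error rates for the comparison of the groups. Python 3.11.15, pandas 2.3.3, numpy 2.4.6, scipy 1.17.1 and statsmodels 0.14.6 were used.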

Additional observations from a re-analysis of the deposited data

How the results depend on the processing

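Alternatives were median centring, quantile normalization, a loess trend removed, scaling to 18 hybridisation or 24 poly-A control probe sets, no floor, a higher floor (75th percentile), an offset of 64, averaging of probe sets, leaving out _s_at, _x_at and _a_at probe sets, and limits of 1.5-fold and 3-fold. The next brightest probe set was added after seeing the data. None of the described genes past 2-fold (Ehhadh, Cd36 and Bdh1) changed sign under these, and other genes were not checked for this. Ehhadh was at least 2-fold lower in all 12 settings that give it a value, from -1.89 to -1.40, Cd36 in all 11, from -1.60 to -1.09, and Bdh1 in 10 of 12. The number of described genes past the limit upward went from 0 to 1 under quantile normalization and loess (Angptl4). It went to 2 under both control scalings and the 1.5-fold limit (Angptl4 and Fgf21). The number 2-fold lower was 1 at 3-fold. With the mean over probe sets Hadha joined the lower genes at -1.57, through a probe set under the floor with signals of 54.9 and 1.47.

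The median of all described genes was -0.078 under quantile normalization, -0.11 under loess, 0.0073 on the hybridisation controls and 0.21 on the poly-A controls. The mitochondrial median was -0.087, -0.11, 0.018 and 0.22 in the same order. The peroxisomal median was -0.15 and 0.052 under the control scalings, and the microsomal one 0.53 under poly-A scaling. The mitochondrial minus peroxisomal difference stayed positive for the described genes. In the further lists the order was reversed, with medians of -0.27 (mitochondrial) and 0.13 (peroxisomal) as deposited. Those lists also hold genes of other kinds, such as thioesterases, so they do not give the order for oxidation enzymes alone. Of all genes, 973 were 2-fold higher and 210 lower on the hybridisation controls, 1599 and 123 on the poly-A controls, 1662 and 1213 without a floor, and 285 and 207 with the higher floor. At 1.5-fold the counts were 1504 and 1145, and at 3-fold 213 and 95. No paired analysis was possible because each group has 1 array. Depth does not apply to arrays, and signals near the floor, as for Fgf21, are the least precise.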

Other observations

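Further genes listed under uptake and activation, among them thioesterases, had differences in both directions. Among 21 such genes, the 2-fold limit was passed by 3 upward and by 4 downward, against 6.12% and 3.68% of all genes. Of the 3 upward, the thioesterase Acot1 had signals of 222.0 and 5070 and was 22.8-fold higher, the highest of 9514 genes. Fabp5, a fatty acid binding protein of skin, macrophages and growing cells, had signals of 2470 and 9363 and was 3.79-fold higher. Fabp4, the binding protein of fat cells, macrophages and endothelium, had 94.9 and 395.8 and was 4.17-fold higher, while Fabp1 stood at -0.22, a ratio above 0 under loess and both control scalings. Of the other fat cell markers, Adipoq, Plin1 and Lep were under the floor on both arrays, and Cfd lay above it, with 808.1 and 637.8, a ratio of -0.34. Their part in the Fabp4 difference was not tested. The 4 lower genes included 3 of the medium-chain acyl-CoA synthetases of liver mitochondria, with Acsm2 at 1154 and 212.6 (5.43-fold lower), Acsm3 at 2252 and 591.5 (3.81-fold) and Acsm5 at 587.8 and 291.3 (2.02-fold). The fourth was Acot12, a cytosolic acetyl-CoA thioesterase, 2.34-fold lower.

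The lipid droplet coat protein Plin2 had signals of 4591 and 11742 and was 2.56-fold higher. Hilpda, an inhibitor of the lipase that opens droplets, had 470.3 and 1021 and was 2.17-fold higher. Pnpla2, that lipase, stood at -0.05 and G0s2, another inhibitor of it, at 0.06, both chosen after their values were seen.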
